A study of Mus musculus with 2 samples.

Results

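The genes examined here encode histone variants that are made outside S phase and the chaperones that place variant H3 in chromatin. They are the H2A variant genes H2afz and H2afv (the H2A.Z paralogs, now named H2az1 and H2az2), H2afx (H2ax) and H2afy (Macroh2a1), the H3.3 genes H3f3a and H3f3b, and the chaperone genes Hira, Daxx, Atrx and Asf1a. The 10 genes were picked by name, and a gene was taken as measured when a probe set of the array carried its symbol and no other. By this rule 9 of the 10 genes were measured, out of 19939 named genes in all. H3f3b had no such probe set.

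Canonical histones are made in S phase and are deposited behind the replication fork, whereas variant histones are made through the cell cycle and can replace canonical ones in chromatin that is not being copied. H3.3 is brought to active genes and enhancers mainly by the HIRA complex, and to telomeres and other repeats by DAXX with the remodeller ATRX, while ASF1A hands H3-H4 dimers to HIRA. H2A.Z marks the nucleosomes that flank promoters, H2AX is the variant that is phosphorylated around DNA breaks, and macroH2A carries a large extra domain and is found on the inactive X chromosome and other silent chromatin. The study set CTCFL binding beside maps of H3 and H3.3 in ES cells, which is the reason to ask whether the transcripts of these genes differed when CTCFL was present.

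The data are 2 arrays of the type Affymetrix Mouse Gene 1.0 ST. The cells of both groups were mouse embryonic stem (ES) cells that carry the reverse tetracycline transactivator at ROSA26 and a TRE-driven transgene for mouse CTCFL, the germ cell paralog of CTCF, fused to V5 and GFP. They grew with LIF on gelatin-coated plastic. The induced group received doxycycline for 3 days and was sorted for GFP, and the non-induced group received no doxycycline and was not sorted. Clones were selected with G418, and whether the arrays came from 1 clone is not given in the sources used here. With 1 array per group no test could be made, no error could be put on a difference, and CTCFL, doxycycline and sorting cannot be told apart.

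Signals are log2 values after robust multi-array averaging (RMA), and a difference is always induced minus non-induced, so that a difference of 1 is a doubling. The floor is a signal of 6.36, the middle of the values of all genes. Ctcfl itself was at 9.44 induced and 5.99 non-induced, a difference of 3.45, and Ctcf was at 8.66 and 8.93. All 10 ES cell markers examined were above the floor, with Pou5f1 at 11.98 induced and 11.96 non-induced. Of these markers 7 had a negative and 3 a positive difference (median -0.07), from Zfp42 (-0.46) and Dppa4 (-0.43) to Dppa5a (0.14) and Klf4 (0.24). Of 10 fibroblast markers 8 were higher in the induced array (median difference 0.29), with Col3a1 at 0.53, Col1a2 at 0.47, Sparc at 0.22 and Vim at -0.25, and their summed linear signal was 3836 induced and 3442 non-induced. Lum, Dcn and Postn of that list were below the floor in both arrays. The 8 endoderm markers summed to 776 and 764 and went both ways, with 5 above 0 and a median of 0.25. Only 5 of the 8 were above the floor, and of these 2 were above 0, with a median of -0.06. Sox17, Afp and Dab2 were below the floor in both arrays. Foxa2 was at 5.83 induced and 6.68 non-induced (-0.85), Lama1 at -0.09, Gata6 at 0.25 and Gata4 at 0.26. Whether other cells were present, and what part they had in the results below, was not tested. In a bulk sample, fewer cells that make a transcript and less transcript per cell cannot be told apart.

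The promoters of the 3 genes with the widest differences are printed because the study asked how CTCFL binds near promoters and the results turn on these genes. They are those of the chaperone genes Asf1a and Atrx, with the widest downward differences of the genes examined, and of the variant gene H2afv, with the widest upward one. Each runs 5′ to 3′ from 250 bases before to 50 after the RefSeq start, in GRCm38.p6, at chr10:53596711-53597010 on the plus strand for Asf1a, chrX:105929323-105929622 on the minus strand for Atrx and chr11:6444394-6444693 on the minus strand for H2afv. Capitals mark matches on either strand to GGNGGCAG, a form of the core of the CTCF consensus, and to the CCAAT box.
Asf1a: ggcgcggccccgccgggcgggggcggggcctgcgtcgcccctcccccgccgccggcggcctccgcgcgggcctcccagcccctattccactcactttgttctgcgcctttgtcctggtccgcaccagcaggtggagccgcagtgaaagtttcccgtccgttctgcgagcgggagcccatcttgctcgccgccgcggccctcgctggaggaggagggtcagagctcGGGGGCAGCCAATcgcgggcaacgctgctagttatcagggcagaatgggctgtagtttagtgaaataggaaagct
Atrx: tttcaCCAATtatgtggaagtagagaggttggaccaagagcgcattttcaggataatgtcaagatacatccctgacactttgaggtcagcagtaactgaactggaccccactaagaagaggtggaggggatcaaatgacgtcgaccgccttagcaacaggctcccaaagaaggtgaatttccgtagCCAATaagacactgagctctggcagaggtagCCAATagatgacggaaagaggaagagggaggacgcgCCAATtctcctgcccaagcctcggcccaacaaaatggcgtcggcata
H2afv: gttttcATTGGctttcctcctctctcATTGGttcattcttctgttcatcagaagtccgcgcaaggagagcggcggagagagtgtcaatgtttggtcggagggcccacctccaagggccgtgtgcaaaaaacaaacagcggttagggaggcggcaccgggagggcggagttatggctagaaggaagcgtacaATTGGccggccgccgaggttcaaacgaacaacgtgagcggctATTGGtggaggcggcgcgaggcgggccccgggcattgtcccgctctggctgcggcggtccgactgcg
RefSeq promoters were found for 9 of the 10 genes, all but H2afx. The letters GGNGGCAG occurred in 1 of these 9, that of Asf1a, starting 25 bases before the start and directly followed by a CCAAT box, against 14.1% of 27025 genes with a promoter in the table. A CCAAT box occurred in 7 of the 9, against 41.1% of all genes. The promoters of Atrx, H2afv and H3f3b held 4 CCAAT boxes each and that of Asf1a 1. The promoters held 50.3% (Atrx) to 74.3% (H2afy) G and C and 11 (Atrx) to 39 (H3f3a) CpG dinucleotides, against medians of 52.7% and 7 over 32851 promoters, so that Atrx lay below the median in G and C. These matches describe the letters of the promoters. Binding of CTCFL at them was not analysed here.

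None of the 9 measured genes differed by log2 1 or more between the arrays. This size was reached upwards by 0.477% and downwards by 1.79% of the 10697 genes at or above the floor in at least 1 array. Of the 9 genes 6 had a negative and 3 a positive difference, which became 5 and 4 after quantile normalization of the arrays, because Hira then lay at 0.03. Their median difference was -0.09, against 0.01 over all genes and -0.03 over the genes above the floor. H3f3a was below the floor in both arrays by its own probe set, and the other 8 genes were above it. At the smaller size of log2 0.58 Asf1a alone was past it, on the lower side. That size was reached by 5.31% of the genes above the floor upwards and 8.45% downwards, so a count of 1 in 8 is near the background.

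The widest differences were those of chaperone genes, and the signs of the chaperone genes were not all the same. The middle 50% of the genes above the floor ran from -0.28 to 0.22. How far apart genes picked at random lay was not examined. Asf1a was at 7.83 induced and 8.45 non-induced. The difference of -0.62 is a 1.54-fold lower signal, and 7.34% of the genes above the floor differed by this much or more downwards. Its value lay between -0.72 and -0.50 under 6 other treatments of the values. The arrays were centred on the median of all genes or of the genes above the floor. Further treatments were removal of a trend with signal level by lowess, a second quantile normalization and an offset of 32 on the linear scale. The last was the mean of the probe sets of a gene. It could not change Asf1a, Atrx, Daxx or Hira, which have 1 own probe set each. Atrx, which encodes an ATP-dependent remodeller of heterochromatin, was at 8.12 induced and 8.65 non-induced, a difference of -0.53, with 10.1% of genes above the floor as low or lower. Atrx lies on chromosome X, where the genes above the floor had a median difference of -0.18 over 305 genes. Daxx, the H3.3-binding partner of ATRX, was at 7.91 induced and 7.74 non-induced, higher by 0.17. The values of these partners thus had opposite signs, 0.70 apart on the log2 scale, and kept them under the same 6 treatments. Centring shifts all genes alike and could not change this distance, and every treatment used the same arrays. Hira, the core of the complex that serves active genes, was at 7.79 and 7.87, a difference of -0.09. It lay 0.53 above Asf1a, the gene of the chaperone that supplies its complex, and its sign depended on the normalization. The median of the 4 chaperone genes was -0.31.

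**Figure D1:**
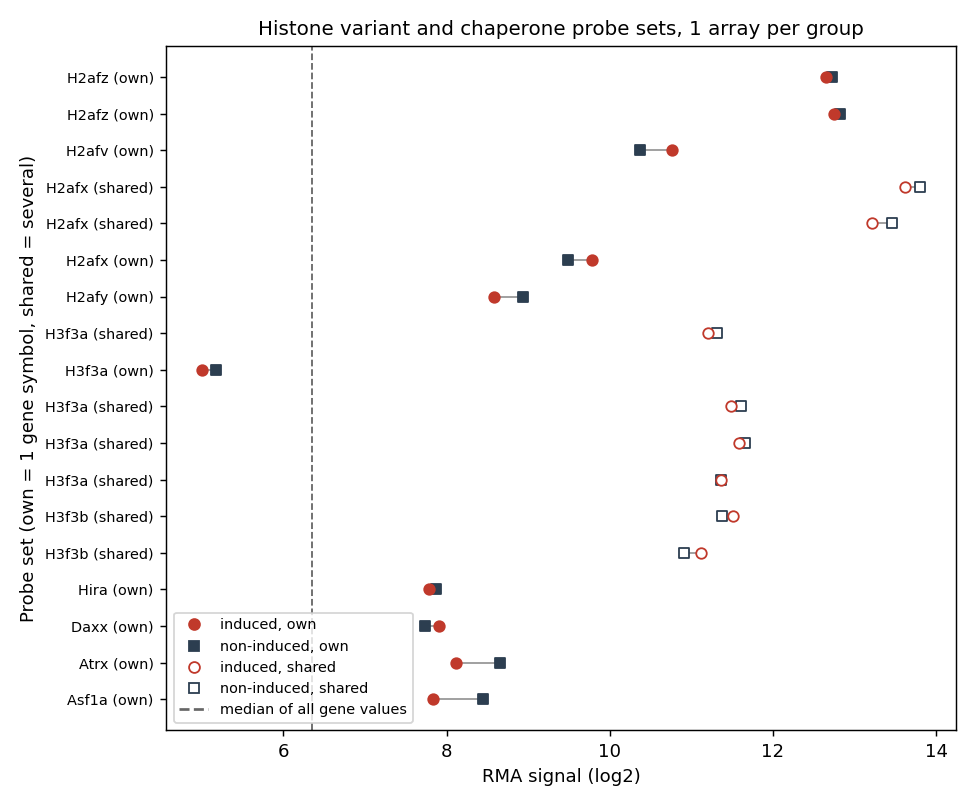
RMA signal (log2 axis) of every probe set whose annotation holds one of the 10 genes, in the induced (circles) and the non-induced array (squares), 1 value per array joined by a line; filled symbols are probe sets of 1 gene symbol, open symbols those shared with other genes, and the dashed vertical marks the floor (6.36). The gaps are widest for Asf1a (7.83 against 8.45) and Atrx (8.12 against 8.65), and the own probe set of H3f3a lies left of the dashed line.

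Among the H2A variant genes the H2A.Z paralogs differed in sign, but H2afz lay near 0. Of the genes above the floor 84.5% were at least as far from 0 as H2afz. H2afz was at 12.75 induced and 12.82 non-induced by the probe set with the higher mean, a difference of -0.07. Its other probe set was at 12.65 and 12.73, a difference of -0.08, so both probe sets of this gene gave nearly the same small difference. H2afv was at 10.76 induced and 10.37 non-induced, higher by 0.39 or 1.31-fold, and 12.7% of the genes above the floor were as high or higher. This was the widest upward difference of the 9 genes, and the paralogs were 0.46 apart.

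H2afx was at 9.78 induced and 9.49 non-induced by its own probe set, a difference of 0.28, with 19.3% of the genes above the floor as high or higher. The array holds H2afx in 2 more probe sets, which list 20 and 19 symbols, most of them S phase H2A genes. These read 13.62 induced against 13.80 non-induced and 13.21 against 13.45, differences of -0.18 and -0.24. The own and the shared probe sets of H2afx therefore had opposite signs, and the shared ones are not assigned to any gene. H2afy was at 8.58 induced and 8.94 non-induced, a difference of -0.36, and 19.0% of the genes above the floor were as low or lower. H2afy lies on chromosome 13, where the median difference was -0.17 over 372 genes above the floor. H2afy2 (Macroh2a2), which encodes the other macroH2A, was at 7.88 induced and 7.43 non-induced, a difference of 0.45, so that the macroH2A genes also differed in sign.

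The H3.3 genes were the least well measured. The probe set that carries H3f3a alone was at 5.01 induced and 5.18 non-induced, a difference of -0.17 at levels below the floor. The array also holds 4 probe sets listed for H3f3a together with Gm12657, which RefSeq lists as protein-coding. They lay between 11.21 and 11.58 in the induced and between 11.32 and 11.66 in the non-induced array, and their differences ran from -0.12 to 0.00. H3f3b is listed in 2 probe sets, each with the transcribed pseudogene Gm6485. They read 11.52 induced against 11.38 non-induced, and 11.12 against 10.91. These shared probe sets lay above the floor in both arrays, differed by at most 0.21, and cannot say which listed gene gave the signal. H3f3a and H3f3b encode the same H3.3 protein.

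**Figure D2:**
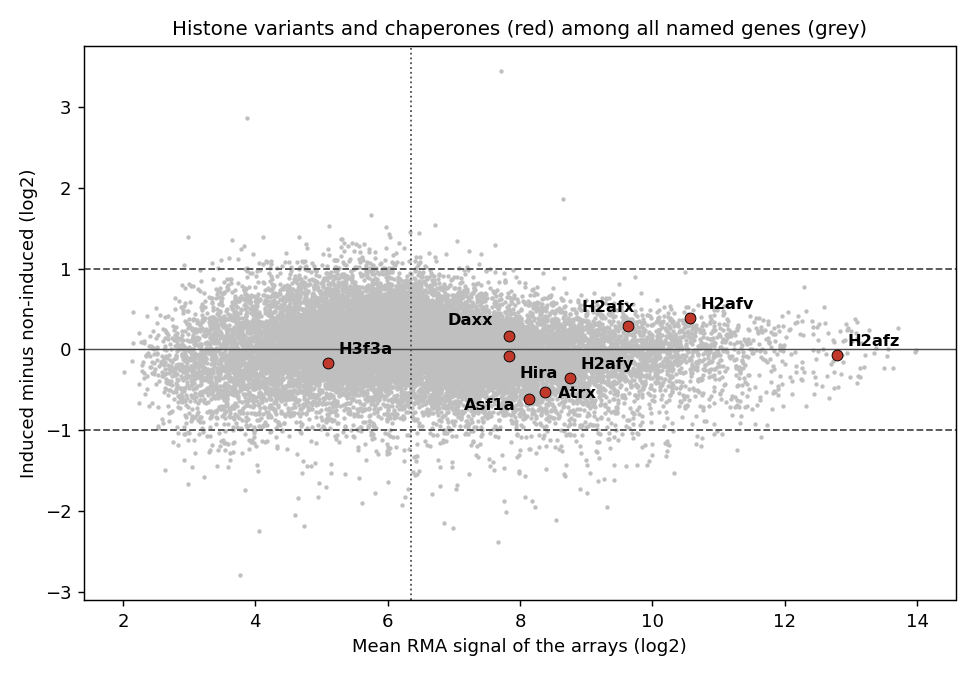
Difference, induced minus non-induced (log2), against the mean RMA signal of the arrays (log2) for all 19939 named genes (grey) and the 9 measured histone variant and chaperone genes (red); dashed lines mark log2 1 in each direction and the dotted line the floor (6.36). All red points lie between the dashed lines and inside the grey cloud, from -0.62 (Asf1a) to 0.39 (H2afv).

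To show how wide differences were at like signal, the genes were divided into 10 bands of equal number by mean signal. All 9 genes lay within the range that held the middle 95% of the genes in their band. For H2afv this range ran from -1.02 to 0.47, for Asf1a and Atrx from -0.93 to 0.54, and for Hira and Daxx from -0.81 to 0.64. This is a spread over genes and not over replicates.

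Other histone genes outside the rule were set beside these. Of 11 measured genes of further variants 8 lay above 0 and 3 below it, with a median of 0.21. The 3 lower genes were past log2 1, a size reached downwards by 1.79% of all genes above the floor. They are the testis variants that lie in the Hist1 cluster on chromosome 13. Hist1h2ba, the testis H2B gene, was at 8.71 induced and 10.14 non-induced (-1.43). Hist1h2aa, the testis H2A gene, was at 11.10 and 12.19 (-1.09). Hist1h1t, the testis linker histone gene, was at 8.23 and 9.29 (-1.06, and -0.99 to -0.94 with the offset, lowess or quantile normalization). The non-induced signal of Hist1h2aa lay above that of Pou5f1 (11.96). Whether transcripts of the S phase histone genes added to the signal of these probe sets was not tested. The 8 variant genes outside the Hist1 cluster lay between 0.02 and 0.55 in the deposited values, 5 of them above the floor. Of the 8, 1 lay below 0 after centring, lowess or quantile normalization. They included Cenpa, the centromeric H3 variant gene (9.90 against 9.69), H1fx, a linker histone gene (8.60 against 8.21), and H1fnt, a spermatid linker histone gene (6.45 against 5.90). Cenpa and H1fx, like the division by cluster, were chosen for naming after their values were seen.

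Replication-dependent histone genes were lower in the induced array for the greater part. Of 64 listed genes 27 had a probe set of their own, since these genes are near copies of each other. Of the 27, 23 were below 0 and 4 above, under each treatment of the values, with a median of -0.46. In the deposited values 23 of the 27 lay above the floor, 21 of them below 0. Of all genes above the floor 5710 of 10697 were below 0. H3c15 alone was past log2 1 (5.42 against 6.64, -1.22, and -0.82 with the offset of 32 on the linear scale). That size was reached downwards by 1.79% of all genes above the floor. H2bc3 was at 10.80 against 11.61 (-0.81), while H2bc18 (10.16 against 9.99) and H3c4 (7.67 against 7.57) were higher. A further 20 probe sets shared only among such genes were all below 0, from -0.37 to -0.07. The median of the 9 variant and chaperone genes, -0.09, was thus nearer to that of all genes than the median of the S phase histone genes was. No test of this difference was possible with 1 array per group.

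**Figure D3:**
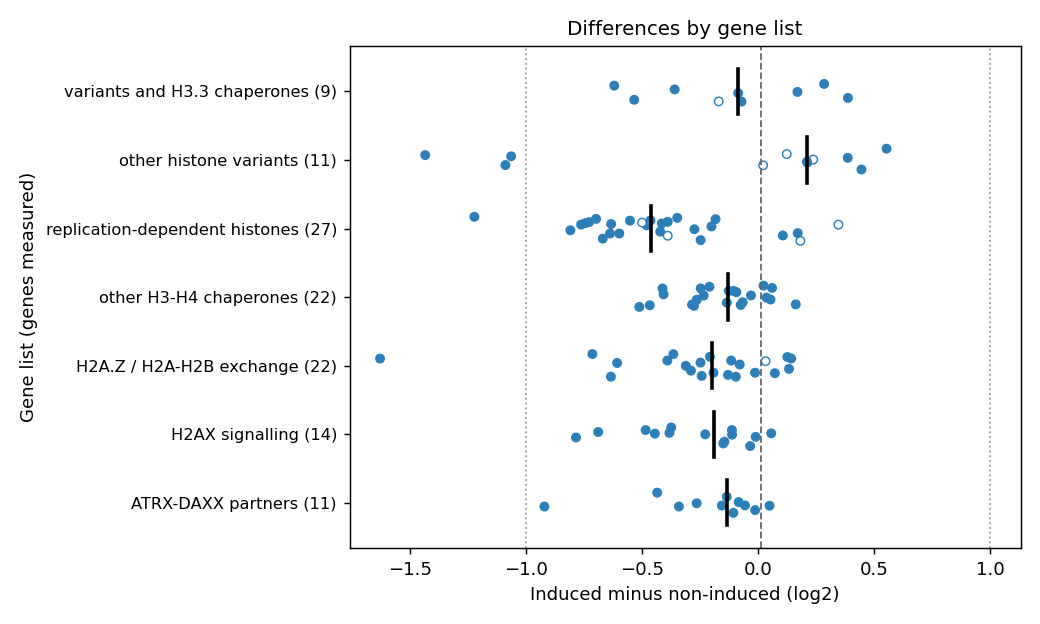
Differences, induced minus non-induced (log2), of the measured genes of each list (1 point per gene, filled at or above the floor and open below it, spread vertically for legibility), with the median of each list as a black bar, the median of all genes as a dashed line and log2 1 in each direction as dotted lines. The histone variant and H3.3 chaperone genes spread to both sides of 0 (median -0.09), while 23 of 27 replication-dependent histone genes lie below 0 and 3 testis variants lie beyond -1. The median of the ATRX-DAXX partners, -0.13, turned to 0.01 after quantile normalization.

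Partners of the chaperones and exchange factors were then examined, and their counts are set beside all genes above the floor, of which 5710 of 10697 were below 0. Of 22 further H3-H4 chaperone genes 17 were below 0 and 5 above (median -0.13), and none was past log2 1. After quantile normalization 14 were below 0 (median -0.07), and after centring on the median 21 (median -0.23). Centring lowered all differences alike, and the median of all genes was 0.02 after quantile normalization and -0.09 after centring. The share of all genes below 0 given above is that of the deposited values and is not matched for signal level. Removal of the trend with level by lowess left 14 of these 22 genes below 0 (median -0.10). Of the lists below, it left 17 of 22 exchange factor genes, 11 of 14 H2AX signalling genes and 7 of 11 ATRX-DAXX partners below 0. Of this list, the HIRA complex gene Ubn1 was at 6.12 induced against 6.63 non-induced (-0.51). Ubn2 was at 6.38 against 6.79 (-0.41) and Cabin1 at 6.57 against 6.83 (-0.26). These signals lay near the floor, and Ubn1 was below it in the induced array. Their differences were inside the range of the middle 95% of genes in their band, -0.74 to 0.81. Hira itself was at -0.09, and at 0.03 after quantile normalization, so the complex was not lower throughout under every treatment. Asf1b, the proliferation-linked paralog of Asf1a, was at 9.86 against 9.83, a difference of 0.04 where Asf1a was at -0.62. Chaf1a and Chaf1b, subunits of the replication-coupled assembly factor CAF-1, were at -0.09 and -0.07. Of the named chaperones, Chd2, a remodeller linked to H3.3 deposition, was at -0.47, Rsf1 at 0.16 and Rbbp4 at 0.06. Ubn2, Cabin1, Asf1b, Chaf1a and Chaf1b were named for their place in these complexes, after their values were seen.

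Factors that exchange H2A.Z and H2A-H2B dimers had a median of -0.20, with 17 of 22 genes below 0. After quantile normalization 15 were below 0 (median -0.09), and after centring on the median, which lowered all differences alike, 19 (median -0.30). Actr6, a subunit of the SRCAP complex that loads H2A.Z, was at 8.37 induced and 9.996 non-induced, a difference of -1.63. It was the 1 gene of the list past log2 1, a size reached downwards by 1.79% of all genes above the floor. Znhit1, another SRCAP subunit, was at 8.15 against 8.87 (-0.71). Vps72, the H2A.Z-binding subunit, was at 6.63 against 7.23 (-0.61), Kat5, the acetyltransferase of the related TIP60 complex, at 7.85 against 8.48 (-0.63), and Srcap itself at 7.03 against 7.28 (-0.25). In the other direction Ep400, the motor of the TIP60 complex, was at 0.14, Dmap1 at 0.13 and Anp32e, which removes H2A.Z, at 0.13. Of the same list Ruvbl1 was at 0.07, Ruvbl2 at -0.01, Trrap at -0.13 and Actl6a at -0.21. Yeats4 was at -0.24, Brd8 at -0.29 and Mbtd1 at -0.31. Apart from Actr6, Znhit1, Ep400 and Dmap1, the genes of this list were named after their values were seen.

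Genes of H2AX signalling had a median of -0.19, with 13 of 14 below 0. After quantile normalization 10 were below 0 (median -0.07), and after centring on the median, which lowered all differences alike, all 14 (median -0.29). The kinase genes Atm (6.98 against 7.76, -0.78) and Atr (7.37 against 8.06, -0.69) were lowest, and Rad50, a subunit of the break sensor MRN, was at 0.06, while H2afx itself was at 0.28. Ppp4c, a phosphatase gene, was at -0.01. Among the partners of ATRX and DAXX 10 of 11 were below 0 with a median of -0.13, which turned to 0.01 (5 below and 6 above 0) after quantile normalization. Morc3, a gene of a PML body ATPase, was at 8.29 against 9.21, a difference of -0.92 that became -1.02 with the array medians set equal. Cbx3, a heterochromatin protein gene, was at -0.43, Sumo2 at -0.01 and Cbx1 at 0.05.

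**Figure D4:**
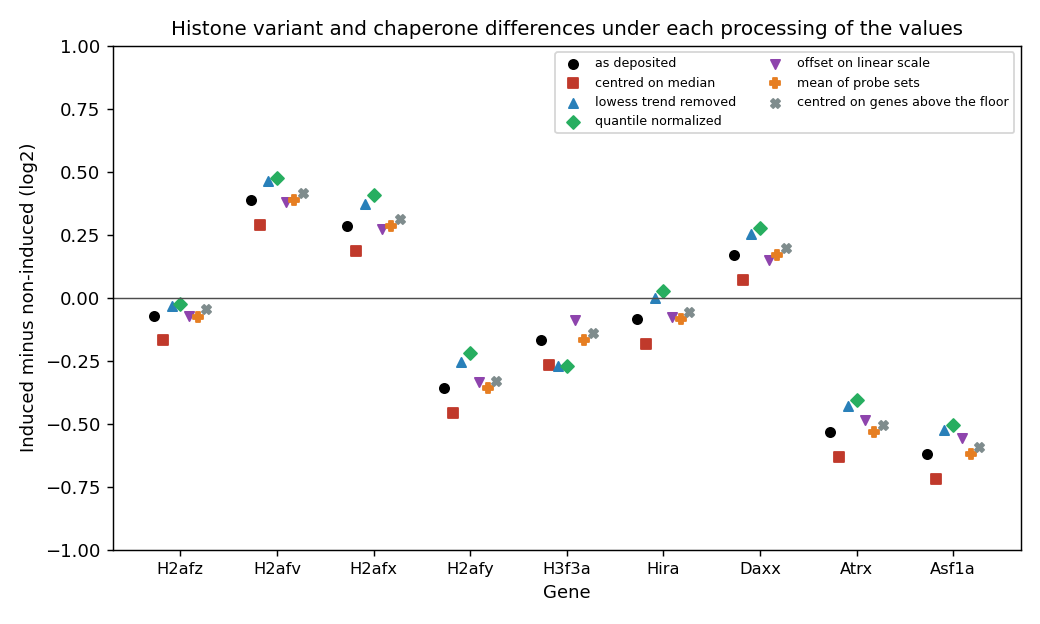
Difference, induced minus non-induced (log2), of each of the 9 measured genes in the deposited values and under 6 other treatments of the values (symbols). Atrx and Asf1a lie below 0 and H2afv, H2afx and Daxx above 0 under every treatment, and Hira lies on both sides of 0 (-0.18 to 0.03). Only H2afz has several own probe sets, so the mean of probe sets could change no other gene.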

How the data were processed

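The authors deposited log2 signals, 1 per probe set and array, of mouse ES cells on Affymetrix arrays, made by RMA (background correction, quantile normalization, summary of probes). The genome build, array annotation and software version are not stated in the labels or methods. Arrays give no counting depth; their number, 1 per group, limits the precision.

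Of 35557 probe sets 21789 carried 1 gene symbol, 1621 several and 12147 none; those with 1 were matched by gene identifier to RefSeq GRCm38.p6 (21698 matched), and a gene was represented by its probe set with the highest mean. Genes were called at log2 1 if the higher value reached the floor, the percentile 50 of all gene values. Replication-dependent histones were found by their older Hist symbols in RefSeq. Promoters came from RefSeq.

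The gene list and all other lists were chosen with earlier results of these data known. All listed genes were named, with genes past log2 1 and the 2 widest each way above the floor of the other lists. Pou5f1 and the markers below the floor were named outside this rule, and the rest are said to be named later. Alternatives were centring on the median, lowess (fraction 0.3), quantile normalization, an offset of 32, the mean of probe sets, log2 0.58 in place of 1, a floor at percentile 75 or none, and, added after the data were seen, centring on the genes above the floor. The steps were tested on simulated data. Protein sequences were not used here. Python 3.11.15 with numpy 2.4.6, pandas 2.3.3 and statsmodels 0.14.6 was used.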

Additional observations from a re-analysis of the deposited data

Results flagged for a closer look

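Outside the probe sets of single genes, the induced array had the higher signal in the 2 probe sets listed for H3f3b with Gm6485, by 0.14 (probe set 10393058) and 0.21 (probe set 10500896) on the log2 scale. Which of the listed genes gave this signal was not tested.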

How the results depend on the processing

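The count of genes past log2 1, 0 higher and 0 lower of 9, was the same under centring, lowess, quantile normalization and the offset. It was also the same with the mean of probe sets, no floor and the floor at percentile 75, which could hardly change it. A higher floor cannot add to a count of 0, H3f3a (-0.17) alone was below the floor, and H2afz alone had several own probe sets. At log2 0.58 the count was 0 higher and 1 lower (Asf1a). The median difference of the 9 genes lay between -0.18 and -0.02. Hira was the 1 gene of the 9 whose sign changed (0.03 after quantile normalization); the cause was not tested. Over all genes, 51 were higher and 191 lower as deposited, 25 and 268 after centring on the median, which moved the median of all genes from 0.01 to -0.09, and 10 and 108 with the offset. No paired analysis was possible because each group has 1 array. For bright probe sets, saturation was not examined.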
